A study of Mus musculus with 7 samples.

Results

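The genes described here are the nuclear genes of respiratory complexes II, III and IV, of cytochrome c and of ATP synthase (complex V), together with the factors that assemble those complexes. They were chosen by symbol: Sdha to Sdhd, every symbol beginning with Sdhaf, Uqcr, Uqcc, Atp5 or Cox and a digit, and Cyc1, Cycs and Ndufa4, without 9 cytochrome c oxidase genes (Cox4i1, Cox4i2, Cox6a1, Cox6a2, Cox7a1, Cox7a2, Cox7a2l, Cox8a and Cox8b). The rule found 55 of the 21487 genes of the deposited table. Of these 36 encode subunits, 1 encodes cytochrome c, 16 encode assembly factors and 2 are named for ATP synthase without being subunits of it.

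RNA was sequenced from mouse gastrocnemius, the large fast muscle of the calf, with 4 libraries from muscle-specific DJ-1 knockout mice (MPARK7KO, which lack Park7 in muscle) and 3 from floxed mice, labelled WT and called controls here. All 7 muscles carried immobilization-induced atrophy, so no library shows muscle at normal use. The labels give neither the Cre line, the age of the mice nor the number of animals, and p-values therefore measure only the spread between these samples. Cells of muscle other than fibres keep Park7 in a muscle-specific knockout.

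Electrons from succinate enter the respiratory chain at complex II, pass through ubiquinone to complex III, travel on cytochrome c to complex IV and reduce oxygen there. Complexes III and IV pump protons, and complex V uses the proton gradient to make ATP. Complex II is encoded wholly in the nucleus, whereas complexes III, IV and V join nuclear subunits to subunits of mitochondrial DNA, and dedicated factors insert haem, copper, flavin and iron-sulfur clusters and put the parts together.

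Genes of this kind are known to be controlled by the factors NRF1, GABP (NRF2), ERR and YY1, so promoter windows of the members were searched for their motifs. RefSeq windows in GRCm38.p6, running from 250 bases before a gene's start to 50 bases after it, were matched by symbol for 46 of the 55 members, which gave 51 windows. The motifs were GCGCA and GCGC with any base N between them for NRF1, AAGGTCA for ERR, CCGGAAG for GABP and AANATGGCG for YY1, each searched on both strands, and in none of the printed windows do matches overlap. The windows printed are those of the called member with the smallest p in each complex, plus Atp5k, added because 3 of the 4 motifs were found there. Capitals mark the matches, and bases are counted from 1 at the 5′ end of the window.
Sdhb promoter (complex II; chr4:140961021-140961320, plus strand): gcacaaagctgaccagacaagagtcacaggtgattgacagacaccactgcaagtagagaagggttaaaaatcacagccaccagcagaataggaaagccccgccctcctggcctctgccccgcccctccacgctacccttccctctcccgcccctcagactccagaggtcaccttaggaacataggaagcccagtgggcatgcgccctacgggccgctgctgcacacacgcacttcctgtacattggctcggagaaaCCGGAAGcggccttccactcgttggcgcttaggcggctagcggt
Uqcc1 promoter (complex III assembly; chr2:155930261-155930560, minus strand): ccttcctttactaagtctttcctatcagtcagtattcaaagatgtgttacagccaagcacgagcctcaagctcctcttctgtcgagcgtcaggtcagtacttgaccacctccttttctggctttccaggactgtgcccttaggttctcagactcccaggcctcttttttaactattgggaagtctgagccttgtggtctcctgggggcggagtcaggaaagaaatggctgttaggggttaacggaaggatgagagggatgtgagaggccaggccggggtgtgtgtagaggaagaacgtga
Cox5a promoter (complex IV; chr9:57520982-57521281, plus strand): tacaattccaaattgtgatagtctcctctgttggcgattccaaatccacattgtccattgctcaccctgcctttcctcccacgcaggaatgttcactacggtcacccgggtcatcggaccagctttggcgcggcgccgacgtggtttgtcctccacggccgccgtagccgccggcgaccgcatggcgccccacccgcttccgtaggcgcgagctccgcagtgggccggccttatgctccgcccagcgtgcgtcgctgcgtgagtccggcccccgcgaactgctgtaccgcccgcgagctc
Atp5g3 promoter (complex V; chr2:73911277-73911576, minus strand): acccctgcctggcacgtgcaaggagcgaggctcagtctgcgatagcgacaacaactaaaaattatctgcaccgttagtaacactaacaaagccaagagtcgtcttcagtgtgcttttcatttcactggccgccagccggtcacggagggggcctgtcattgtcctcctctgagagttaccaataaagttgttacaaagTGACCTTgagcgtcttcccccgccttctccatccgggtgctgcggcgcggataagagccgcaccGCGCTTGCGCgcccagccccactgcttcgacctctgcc
Atp5k promoter (complex V; chr5:108434350-108434649, minus strand): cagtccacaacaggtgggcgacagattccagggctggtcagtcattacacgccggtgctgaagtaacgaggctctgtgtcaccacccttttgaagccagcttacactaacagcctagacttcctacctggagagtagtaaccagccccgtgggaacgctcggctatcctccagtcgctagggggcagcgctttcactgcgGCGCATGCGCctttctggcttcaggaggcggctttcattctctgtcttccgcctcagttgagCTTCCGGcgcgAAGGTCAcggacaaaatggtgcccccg

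In the Sdhb window the GABP motif stood at bases 257 to 263. The Atp5g3 window held the ERR motif at bases 199 to 205 and the NRF1 motif at bases 263 to 272. In the Atp5k window the NRF1 motif was at bases 201 to 210, the GABP motif at 263 to 269 and the ERR motif at 274 to 280. The windows of Uqcc1 and Cox5a held none of these letters, and the window of Sdhd, not printed, held the NRF1, ERR and GABP motifs. For Cox5a and Sdhd the bases just after the RefSeq start were found in no GENCODE M21 transcript of the gene, so their windows rest on the RefSeq start alone. The NRF1 motif was present in 23.5% of the members' windows and in 4.60% of all 32851 windows, the ERR motif in 11.8% and 4.72%, the GABP motif in 37.3% and 8.86%, and the YY1 motif in 13.7% and 2.38%. Those 32851 windows belong to 27025 genes and were not limited to genes expressed in these muscles. Members that fell and the other tested members both carried such motifs: NRF1 in 26.5% and 18.8% of windows, ERR in 14.7% and 6.25%, GABP in 32.4% and 50%, and YY1 in 17.6% and 6.25%, over 34 and 16 windows. Motif letters in a window are a description and not a measure of binding.

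Library totals ran from 24458339 to 26389008 expected counts. Levels are given as CPM, the count of a gene scaled to a common library total, with library sizes adjusted by TMM. They are not divided by transcript length and so are compared between samples and not between genes. The Park7 mRNA was at 35.9, 41.5, 34.7 and 37.2 CPM in the knockouts, against 240, 229 and 266 CPM in the controls, with -2.71 as the log2 fold change (adjusted p = 3.09e-06). Skeletal muscle markers (Ckm, Acta1, Ttn, Des and Mb) summed to 42349 to 55119 CPM in the knockouts and 49444 to 57119 CPM in the controls.

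Subunit mRNAs of all 4 complexes were lower in the knockout muscles, whereas most assembly factor mRNAs did not pass the test. Whether subunits and assembly factors differ in their fall was not tested. A gene was called at a Benjamini-Hochberg adjusted p under 0.05 in edgeR's quasi-likelihood test over all 13409 tested genes, and the other members were tested in the same fit. Of the 54 members tested, 37 fell, 1 rose and 16 did not pass. Among all tested genes 7.94% were called lower and 6.56% higher. The median log2 fold change, knockout over control, was -0.40 over the tested members and 0.0057 over all tested genes.

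Of the 35 subunits tested 32 fell and 0 rose, with a median log2 fold change of -0.46. Of the 16 assembly factors 3 fell (Sdhaf2, Sdhaf4 and Uqcc1) and 1 rose (Cox16), with a median of -0.083. Complex IV accounts for 9 of these 16. The summed CPM of the complex II and complex III factors was 0.772 and 0.812 times the control mean. In both sums every knockout lay below every control. For the complex IV factors the ratio was 0.970, and the groups overlapped. The assembly factors were read less precisely, with standard errors of 0.070 to 0.160 against 0.068 to 0.098 for the subunits. All knockout libraries lay below all controls for 34 of the 35 subunits and for 5 of the 16 assembly factors, as they did for 14.8% of all tested genes. They lay above all controls for 0 subunits and 2 assembly factors, against 14% of all tested genes. The exceptions among subunits were Uqcr10, Cox7c and Atp5g2, which did not pass, and only Atp5g2 had overlapping groups. Without control 1 the test called 24 members and 21 subunits lower, and 801 of all genes in either direction against 1944 with all libraries, while the subunit median was -0.44.

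**Figure D1:**
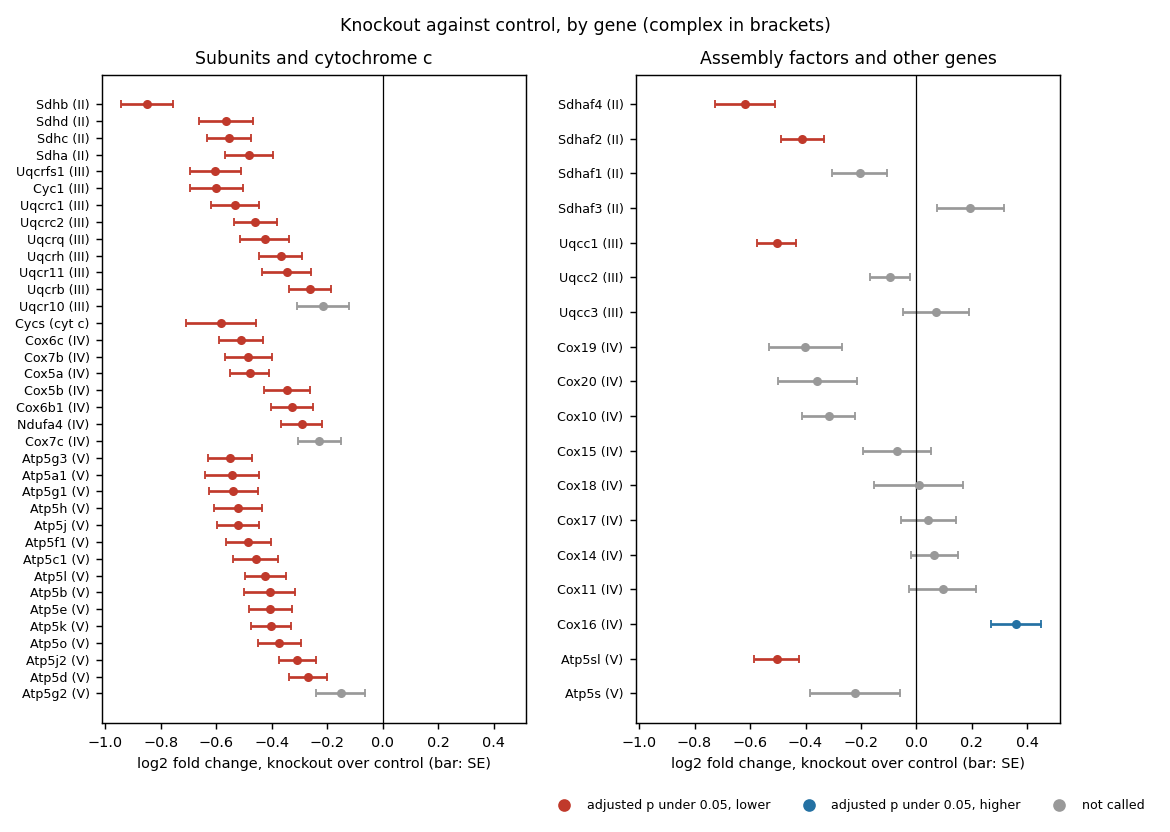
Log2 fold change of each of the 54 tested members, knockout over control (x axis; bars are SE), with subunits and cytochrome c on the left and assembly factors and the 2 other genes on the right, ordered by complex. All 35 subunits lie left of 0, Sdhb farthest at -0.85, while the 9 complex IV assembly factors lie on either side of 0.

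All 4 subunits of complex II, succinate dehydrogenase, fell. Sdhb, the iron-sulfur subunit that hands electrons to ubiquinone (chromosome 4, 140961203 to 140979193, GRCm38), had 164, 159, 140 and 176 CPM in the knockouts, against 281, 307 and 274 CPM in the controls. Its highest knockout lay far under its lowest control. With a fitted fall of 44.4%, or -0.85 on the log2 scale (adjusted p = 0.0030, SE 0.093), it had the lowest fold change of the 54 members. Sdha, the flavoprotein that oxidizes succinate, had 580, 630, 584 and 670 CPM in the knockouts, against 875, 829 and 875 CPM in the controls (log2 fold change -0.48, SE 0.085, adjusted p = 0.010).

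Sdhc and Sdhd form the membrane anchor of the complex. The Sdhc mRNA was at 148, 142, 136 and 151 CPM in knockout muscles and 209, 228 and 197 CPM in control muscles (log2 fold change -0.55, SE 0.080, adjusted p = 0.0063). That of Sdhd was at 160, 127, 127 and 141 CPM in knockout muscles and 211, 211 and 194 CPM in control muscles (log2 fold change -0.56, SE 0.098, adjusted p = 0.0096). In neither did the groups overlap, and knockout 1 was the highest knockout for Sdhd and knockout 4 for the other 3 genes. The calls of all 4 held without each library in turn, with log2 fold changes of -0.90 to -0.79 for Sdhb.

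Complex II is encoded by these 4 genes alone, so its summed subunit mRNA can be given whole. The sum was 1052, 1057, 987 and 1138 CPM in the knockouts, against 1576, 1574 and 1541 CPM in the controls, or 0.677 times the control mean. The corresponding ratio was 0.725 for the complex III subunits of the rule, 0.767 for those of complex IV and 0.730 for those of complex V. The order of these ratios was not tested.

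**Figure D2:**
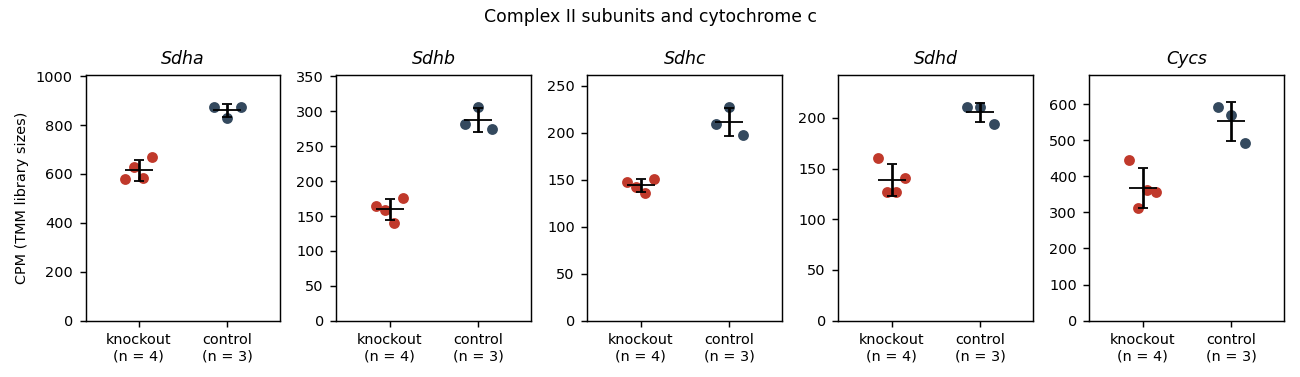
CPM of the 4 complex II subunit genes and of Cycs in each library (points), with the mean and SD of the 4 knockouts and the 3 controls. In all 5 panels every knockout point lies below every control point; for Sdhb the knockouts reach 176 CPM and the controls start at 274 CPM.

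Cycs encodes somatic cytochrome c, the carrier between complexes III and IV. It had 444, 312, 361 and 356 CPM in the knockouts, against 593, 570 and 492 CPM in the controls. Knockout 1 stood above the other knockouts and still below control 3. The change was -0.58 on the log2 scale (adjusted p = 0.019, SE 0.126), and the call was lost without knockout 3 (adjusted p = 0.052), control 1 (0.068) or control 2 (0.059).

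In complex III, 8 of 9 nuclear subunits fell, including those that carry its redox centres. Uqcrfs1, the Rieske iron-sulfur protein, had 249, 213, 220 and 261 CPM in the knockouts, against 368, 364 and 342 CPM in the controls (log2 fold change -0.60, SE 0.092, adjusted p = 0.0069). Cyc1, cytochrome c1, had 186, 172, 174 and 215 CPM in the knockouts, against 278, 299 and 273 CPM in the controls (-0.60, SE 0.096, adjusted p = 0.0076). The groups overlapped for neither gene. Uqcrc1, a core protein on the matrix side, had 351, 350, 330 and 402 CPM in the knockouts, against 527, 516 and 512 CPM in the controls (-0.53, SE 0.087, adjusted p = 0.0078).

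The remaining subunits had fold changes nearer to 0. Uqcrc2, the other core protein, had a log2 fold change of -0.46 (adjusted p = 0.0084), although none of its expected counts is whole, which marks reads shared with similar sequences. The small subunits Uqcrq, Uqcrh, Uqcr11 and Uqcrb fell by 0.43, 0.37, 0.35 and 0.26 on the log2 scale (adjusted p = 0.017, 0.017, 0.032 and 0.048). Uqcr10 had 102, 120, 117 and 126 CPM in the knockouts and 127, 147 and 131 CPM in the controls. The groups of Uqcr10 were apart by little, and it did not pass the test, at -0.21 on the log2 scale (adjusted p = 0.154, SE 0.094).

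The calls of the small subunits were lost when certain libraries were left out. Uqcrb was not called when any of the 7 libraries was left out (adjusted p = 0.066 to 0.144), nor with no filter on low counts (0.097). Uqcr11 lost its call without knockout 3 (adjusted p = 0.066), control 1 (0.071), control 2 (0.087) or control 3 (0.106). Uqcrh lost it without control 1 (0.068) or control 2 (0.051), and Uqcrq without control 1 (0.059) or control 2 (0.056). Over these sets the fold changes stayed negative, between -0.30 and -0.22 for Uqcrb.

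Of the 8 nuclear subunits of complex IV, cytochrome c oxidase, in the rule, 7 were tested and 6 fell. Cox5a, which sits on the matrix side, had 243, 247, 235 and 256 CPM in the knockouts, against 347, 344 and 335 CPM in the controls (log2 fold change -0.48, SE 0.071, adjusted p = 0.0066). Cox6c, a small membrane subunit, had 175, 194, 169 and 189 CPM in the knockouts, against 267, 252 and 257 CPM in the controls (-0.51, SE 0.079, adjusted p = 0.0069). The replicates of both genes lay close together and the groups far apart. Another small membrane subunit, Cox7b, encoded on the X chromosome, fell by 0.48 (adjusted p = 0.0096).

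Ndufa4 was first assigned to complex I and is now placed in complex IV. It had 237, 253, 239 and 262 CPM in the knockouts, against 297, 309 and 305 CPM in the controls (log2 fold change -0.29, SE 0.074, adjusted p = 0.032). The fall was small beside that of Cox5a, yet the groups did not overlap. Cox5b fell by 0.34 (adjusted p = 0.027) and Cox6b1, on the side facing the intermembrane space, by 0.33 (adjusted p = 0.024). Cox7c, whose counts are also shared with similar sequences, had 206, 228, 200 and 223 CPM in the knockouts and 246, 258 and 248 CPM in the controls. At -0.23 on the log2 scale (SE 0.078) Cox7c missed the threshold (adjusted p = 0.081), but was called with DESeq2 (0.035) and with upper quartile scaling (0.045).

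In complex IV as well, the smaller falls were not called without certain libraries. Ndufa4 lost its call without knockout 1 (adjusted p = 0.055), knockout 3 (0.081), control 1 (0.083), control 2 (0.091) or control 3 (0.103), and with no filter on low counts (0.065). Cox5b lost it without knockout 3 (0.070) or without control 1, 2 or 3 (0.075, 0.086 and 0.068). Cox6b1 lost it without knockout 3 (0.060) or without control 1, 2 or 3 (0.070, 0.080 and 0.051). Cox6b2, the isoform known from testis, had 2, 0, 4 and 0 counts in the knockouts and 2, 6 and 1 in the controls and was too low to test. Of the 9 oxidase genes outside the rule, 5 fell and 0 rose, with Cox7a1, the muscle isoform, at a log2 fold change of -0.80 (adjusted p = 0.0022).

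ATP synthase consists of a catalytic head, a rotor, a peripheral stalk and a membrane part. Of its 15 subunit mRNAs in the rule 14 fell. Atp5b, the catalytic beta subunit, had 1864, 1905, 1887 and 2162 CPM in the knockouts, against 2669, 2541 and 2564 CPM in the controls (log2 fold change -0.41, SE 0.092, adjusted p = 0.022). Knockout 4 lay above the other 3 knockouts and below all controls. Atp5a1, the alpha subunit, fell by 0.54 (adjusted p = 0.010) and the rotor subunit Atp5c1, gamma, by 0.46 (adjusted p = 0.010). Atp5e and Atp5d, the other subunits of the central stalk, fell by 0.41 and 0.27 (adjusted p = 0.013 and 0.031).

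The peripheral stalk holds the head still while the rotor turns. Atp5j (coupling factor 6) had 202, 200, 193 and 210 CPM in the knockouts, against 288, 306 and 273 CPM in the controls (log2 fold change -0.52, SE 0.076, adjusted p = 0.0063). Its groups were narrow and far apart. Atp5h, Atp5f1 and Atp5o fell by 0.52, 0.48 and 0.37 (adjusted p = 0.0082, 0.0087 and 0.017). The membrane subunits Atp5l, Atp5k and Atp5j2, of which Atp5l and Atp5k are known for joining ATP synthase into dimers, fell by 0.42, 0.40 and 0.31 (adjusted p = 0.010, 0.010 and 0.021).

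Of the 14 calls in ATP synthase, those of Atp5b, Atp5d, Atp5e, Atp5j2 and Atp5o were lost without certain libraries. Without control 1 the adjusted p was 0.080 for Atp5b, 0.100 for Atp5d, 0.069 for Atp5j2 and 0.065 for Atp5o. Without control 2 it was 0.057 for Atp5b, 0.082 for Atp5d and 0.064 for Atp5j2, and without control 3 it was 0.068, 0.095 and 0.068 for these 3 genes, 0.056 for Atp5e and 0.060 for Atp5o. Without knockout 3 it was 0.058 for Atp5b, 0.075 for Atp5d and 0.056 for Atp5j2, and without knockout 4 it was 0.060 for Atp5d. With no filter on low counts Atp5d also lost its call (0.074). The other calls in ATP synthase held without each library in turn.

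Subunit c, which forms the rotating ring in the membrane, is made from 3 genes that encode the same mature protein with different import sequences. Atp5g1 (chromosome 11, 96068852 to 96075670, GRCm38) had 214, 226, 203 and 244 CPM in the knockouts, against 315, 346 and 306 CPM in the controls (log2 fold change -0.54, SE 0.089, adjusted p = 0.0082). Atp5g3 (chromosome 2, 73908447 to 73911326) had 283, 285, 277 and 309 CPM in the knockouts, against 428, 438 and 401 CPM in the controls (-0.55, SE 0.078, adjusted p = 0.0058). In neither gene did the groups overlap. Atp5g2 (chromosome 15, 102662864 to 102672352) had 105, 115, 101 and 117 CPM in the knockouts and 112, 132 and 122 CPM in the controls (-0.15, SE 0.089, adjusted p = 0.280).

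Atp5g2 was thus the subunit gene with the fold change nearest to 0, and its highest knockouts lay above its lowest control. Its share of the summed CPM of the 3 genes was 17.5%, 18.4%, 17.4% and 17.5% in the knockouts, against 13.1%, 14.4% and 14.7% in the controls, or 17.7% ± 0.475 (SD, n = 4) and 14.1% ± 0.868 (SD, n = 3). Every knockout share lay above every control share. The share was computed after the values of the 3 genes had been seen, it is not corrected for transcript length, and it was not tested. Atp5g2 was not called in any of the 15 alternative settings, with log2 fold changes of -0.22 to -0.089.

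**Figure D3:**
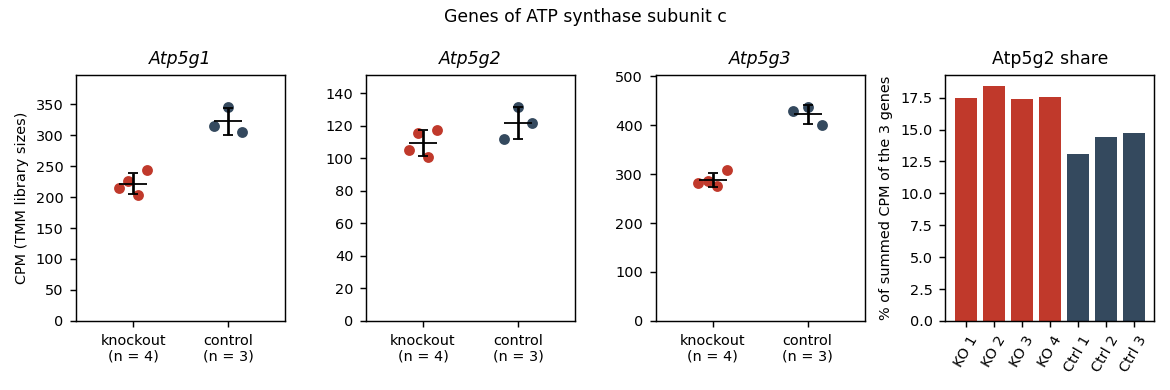
CPM of the 3 subunit c genes in each library (points, with mean and SD over 4 knockouts and 3 controls) and, in the last panel, the percentage of their summed CPM that came from Atp5g2. The knockouts lie below the controls for Atp5g1 and Atp5g3 and overlap them for Atp5g2, whose share is 17.4% to 18.4% in the knockouts and 13.1% to 14.7% in the controls.

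The symbols Atp5s and Atp5sl fall under the rule but do not encode ATP synthase subunits; the protein of Atp5sl is known as a factor for the membrane arm of complex I. Atp5sl had 27.3, 24.0, 24.5 and 25.6 CPM in the knockouts, against 36.5, 37.6 and 33.7 CPM in the controls, and fell (log2 fold change -0.50, SE 0.081, adjusted p = 0.0076). Atp5s had 9.21, 15.6, 11.5 and 11 CPM in the knockouts and 13.4, 14.2 and 13.6 CPM in the controls. Knockout 2 was its highest library of all, and it did not pass (-0.22, SE 0.162, adjusted p = 0.384).

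Among the 4 assembly factors of complex II, the 2 that act on the flavoprotein fell. Sdhaf4, which helps flavin-bearing Sdha join Sdhb, had 10.3, 12.5, 10.6 and 9.51 CPM in the knockouts, against 16.6, 17.0 and 15.8 CPM in the controls (log2 fold change -0.62, SE 0.110, adjusted p = 0.010). Sdhaf2, which attaches the flavin to Sdha, had 28.6, 26.6, 27.2 and 29.9 CPM in the knockouts, against 39.6, 36.1 and 36.3 CPM in the controls (-0.41, SE 0.078, adjusted p = 0.013). Neither pair of groups overlapped. Without control 1 the call of Sdhaf2 was lost (adjusted p = 0.051).

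The 2 factors that serve the iron-sulfur clusters of Sdhb did not pass. Sdhaf1 was at -0.20 on the log2 scale (adjusted p = 0.196, SE 0.100). Its highest knockout, at 11.71 CPM, lay just below its lowest control, at 11.78 CPM. Whether these factors differ from Sdhaf2 and Sdhaf4 was not tested. Sdhaf3, the tested member with the fewest counts, had 4.32, 4.83, 4.58 and 4.76 CPM in the knockouts and 4.26, 3.95 and 3.90 CPM in the controls. All its knockouts lay above all its controls, by a small margin, at 0.19 on the log2 scale (adjusted p = 0.308, SE 0.122).

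The complex III factors Uqcc1, Uqcc2 and Uqcc3 all act on the mitochondrially encoded cytochrome b, and 1 of the 3 fell. Uqcc1 (chromosome 2, 155846894 to 155930310, GRCm38) had 89.7, 93.1, 90.9 and 83.6 CPM in the knockouts, against 126, 128 and 125 CPM in the controls (log2 fold change -0.50, SE 0.070, adjusted p = 0.0052). Uqcc2, which forms a unit with Uqcc1, had 65.6, 65.1, 60.9 and 68.7 CPM in the knockouts and 67.7, 72.3 and 68.8 CPM in the controls (-0.097, SE 0.072, adjusted p = 0.392). The groups of Uqcc1 were far apart and those of its partner overlapped. Uqcc3 had 19.3, 22.5, 24.4 and 19.9 CPM in the knockouts and 17.8, 23.0 and 20.7 CPM in the controls (0.072, SE 0.119, adjusted p = 0.714).

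None of the 9 complex IV assembly factors fell in edgeR's test, and Cox16 rose. An unadjusted p under 0.05 was found for 4 of the 9, Cox16 included. Of all 13409 tested genes 4238 had such a p. Cox16, which works on the maturation of the subunit COX2, had 28.5, 27.1, 26.6 and 24.7 CPM in the knockouts, against 21.5, 22.0 and 19.0 CPM in the controls (log2 fold change 0.36, SE 0.089, adjusted p = 0.030). Its groups did not overlap, but all its counts include reads shared with other sequences. The call was lost without knockout 1 (adjusted p = 0.056), knockout 3 (0.071), control 1 (0.078), control 2 (0.055) or control 3 (0.114). Cox16 was the only member that rose.

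The other complex IV factors spread around 0. As for Cox16, the counts of Cox11, Cox15 and Cox20 all include reads shared with other sequences. Cox10, which makes haem o for the oxidase, had 34.9, 37.7, 32.7 and 32.5 CPM in the knockouts and 42.4, 47.9 and 38.4 CPM in the controls (log2 fold change -0.32, SE 0.097, adjusted p = 0.058), and was called with DESeq2 (0.038), upper quartile scaling (0.036) or without knockout 2 (0.039). Cox15, which turns haem o into haem a, had a log2 fold change of -0.070 (adjusted p = 0.735). Among the copper factors, Cox19 had -0.40 (adjusted p = 0.072), called without knockout 1 (0.033), Cox17 had 0.043 (0.800) and Cox11 had 0.095 (0.625). Cox20 and Cox18, which handle COX2, had -0.36 (0.123) and 0.0076 (0.980).

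Cox14, which acts early on COX1, had 38.9, 43.5, 43.9 and 39.6 CPM in the knockouts and 39.0, 37.1 and 43.0 CPM in the controls (log2 fold change 0.064, SE 0.085, adjusted p = 0.639). Its groups overlapped, as did those of 6 of the other 8 complex IV factors. Overlapping groups were found for 9549 of all 13409 tested genes. The summed CPM of the 9 factors was 235, 214, 215 and 207 in the knockouts and 223, 231 and 220 in the controls.

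**Figure D4:**
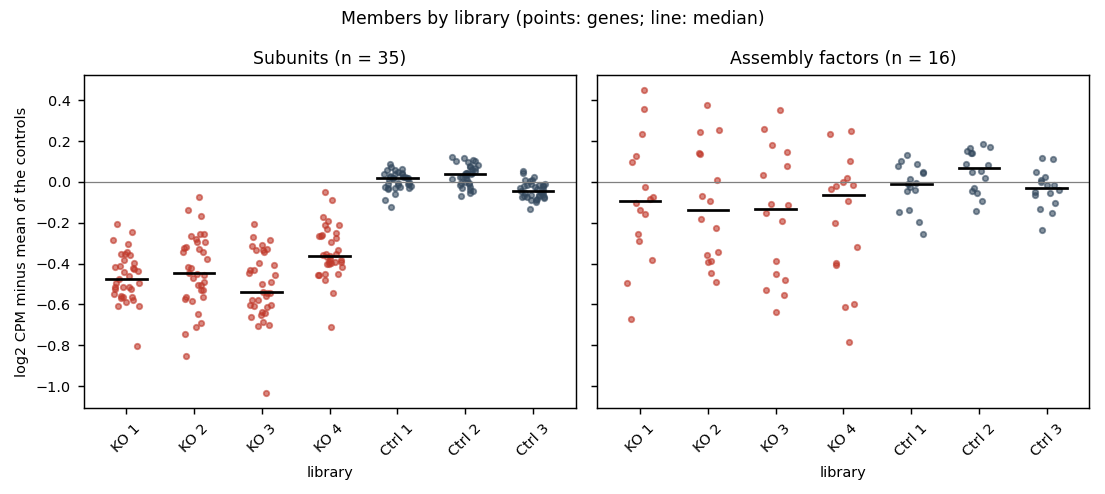
Log2 CPM of each tested subunit (left, 35 genes) and assembly factor (right, 16 genes) minus the mean of that gene over the controls, in each library (KO, knockout; Ctrl, control); lines are medians over the genes. The medians of the knockouts are -0.54 to -0.36 for subunits and -0.14 to -0.064 for assembly factors.

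Further assembly and accessory genes of these complexes carry symbols that the rule does not match. Of 32 listed, 29 are in the table and 28 were tested. Of these 7 fell (25%, against 7.94% of all tested genes) and 0 rose, with a median log2 fold change of -0.20. Lyrm7 and Smim4, which serve complex III, fell by 0.63 and 0.61 (adjusted p = 0.026 and 0.047). Hccs, which attaches haem to cytochromes c and c1, fell by 0.31 (0.032), and Taco1, an activator of COX1 translation, by 0.38 (0.041). Atpaf1 and Tmem70, assembly factors of ATP synthase, fell by 0.38 and 0.39 (0.030 and 0.015), and Usmg5, a small protein of the complex, by 0.41 (0.022). This count was 1 without control 1, 0 without control 2, 1 without control 3, 3 without knockout 3 and 1 without knockout 4, and 4 with no filter on low counts.

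The subunits of the same complexes that mitochondrial DNA encodes (CYTB, COX1, COX2, COX3, ATP6 and ATP8) all fell, with a median log2 fold change of -0.87 against -0.46 for the nuclear subunits. Their summed CPM was 70916, 66178, 59266 and 79211 in the knockouts, against 131746, 127504 and 116304 in the controls. COX1 fell by 0.87 (SE 0.138, adjusted p = 0.0073) and CYTB by 0.81 (SE 0.124, adjusted p = 0.0069). The 36 nuclear subunits summed to 10343, 10357, 9991 and 11396 CPM in the knockouts, against 14691, 14586 and 14096 CPM in the controls. In both sums knockout 3 was the lowest library and knockout 4 the highest knockout, and whether the 2 sets differ in their fall was not tested. The 16 assembly factors summed to 464, 450, 445 and 434 CPM in the knockouts and 507, 526 and 503 CPM in the controls.

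The same libraries recurred at the ends of the knockout range. Knockout 4 was the highest knockout for 26 of the 37 members that fell, and knockout 3 was the lowest for 17, knockout 1 for 10, knockout 2 for 8 and knockout 4 for 2. The median deviation of the tested subunits from the control mean was -0.48, -0.44, -0.54 and -0.36 on the log2 scale in knockouts 1 to 4. It was 0.018, 0.038 and -0.044 in controls 1 to 3. The median of each knockout lay under that of each control by more than the controls differed among themselves.

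**Figure D5:**
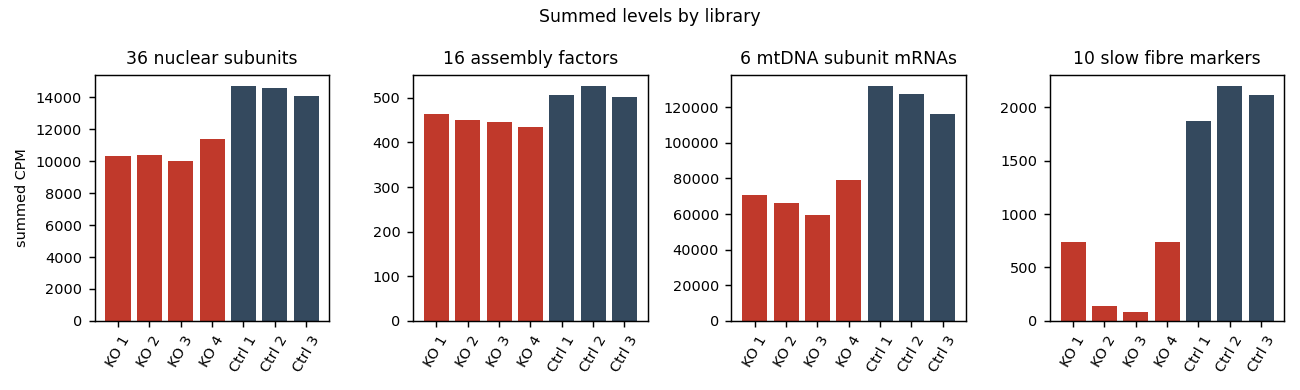
Summed CPM in each library of the 36 nuclear subunits, the 16 assembly factors, the 6 subunit mRNAs of mitochondrial DNA and the 10 slow fibre markers. The nuclear subunit sum is 9991 to 11396 in the knockouts and 14096 to 14691 in the controls, while the slow fibre sum is 86.0 to 742 in the knockouts and 1871 to 2195 in the controls.

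Markers of fibre type differed between the groups in part. Of 10 slow fibre markers 5 fell and 5 did not pass, and all 10 had every knockout below every control. Of all tested genes 7.94% were called lower and 6.56% higher, and 14.8% had every knockout below every control. The sum of the slow fibre markers was 735, 143, 86.0 and 742 CPM in the knockouts, against 1871, 2195 and 2115 CPM in the controls. Knockout 3 was the lowest knockout in this sum, and knockouts 1 and 4 lay close together. Of 8 fast fibre markers 2 rose, 2 fell and 4 (Pvalb, Tnnt3, Tnni2 and Tnnc2) did not pass, and their sum was 113838 to 173556 CPM in the knockouts and 86734 to 107676 CPM in the controls. Myh4, the myosin of the fastest fibres, and Actn3, a protein of the fast fibre Z-disc, rose, with log2 fold changes of 1.11 and 0.74 (adjusted p = 0.015 and 0.013), while Myh1 and Myh2, the myosins of the more oxidative fast fibres, fell, with log2 fold changes of -1.45 and -2.25 (adjusted p = 0.028 and 0.049). None of the expected counts of Myh1, Myh2 and Myh4 is whole, which marks reads shared with similar sequences. The Myh4 call was lost without control 1 (0.061) or control 2 (0.055), that of Actn3 without control 1 (0.055), that of Myh1 without knockout 1 or any control (0.059 to 0.077), and that of Myh2 when any library other than knockout 3 was left out (0.055 to 0.118). Mb, which encodes myoglobin, was at 875, 996, 253 and 1002 CPM in the knockouts, against 3747, 3500 and 3335 CPM in the controls (-2.17, adjusted p = 0.010). The part of fibre type in the fall of the subunit mRNAs was not tested. In whole muscle, fewer fibres of a type and less RNA per fibre cannot be told apart.

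Several markers of other cell types fell as well, beside 7.94% of all tested genes that were called lower. Called lower were 1 of 8 endothelial markers, 2 of 6 for macrophages, 3 of 6 for fibroblasts, 1 of 5 tested for adipocytes, 3 of 5 erythroid, 2 of 4 for smooth muscle, 0 of 4 for Schwann cells and 0 of 3 for satellite cells (unadjusted p under 0.05 in 2 and 0). Of all 13409 tested genes 4238 had an unadjusted p under 0.05. The macrophage markers summed to 17.1 to 28.3 CPM in the knockouts and 28.6 to 34.5 CPM in the controls, and the endothelial markers to 199 to 219 CPM in the knockouts and 243 to 286 CPM in the controls. The fibroblast sum, 205 to 332 CPM in the knockouts and 296 to 693 CPM in the controls, and the erythroid sum, 101 to 235 CPM in the knockouts and 223 to 808 CPM in the controls, overlapped between groups. The smooth muscle markers summed to 77.7 to 84.6 CPM in the knockouts and 96.5 to 112 CPM in the controls, and those of Schwann cells to 22.7 to 37.4 CPM in the knockouts and 38.3 to 166 CPM in the controls. For adipocytes the sum was 13.8 to 32.0 CPM in the knockouts and 29.6 to 68.5 CPM in the controls, and for satellite cells 25.3 to 37.2 CPM in the knockouts and 25.9 to 31.0 CPM in the controls. The brown fat marker Ucp1 had 1 count in knockout 3 and 0 in the other libraries, and the neutrophil markers S100a8 and S100a9 were too low to test. Their part in the results was not tested.

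General mitochondrial genes and regulators were measured alongside. Of 9 general genes (Cs, Vdac1, Vdac2, Tomm20, Tomm40, Timm23, Hspd1, Hspa9 and Tfam) 1 fell and 0 rose. Of all tested genes 7.94% were called lower and 6.56% higher. The 9 general genes all had negative log2 fold changes, with a median of -0.25. They summed to 3049 to 3204 CPM in the knockouts and 3819 to 3905 CPM in the controls. Cs, citrate synthase of the tricarboxylic acid cycle, had -0.45 (SE 0.086, adjusted p = 0.013). Hspa9 had -0.40 (adjusted p = 0.053) and Vdac1 -0.33 (0.059), each with groups apart, while 5 of the 9 had overlapping groups. Among all 13409 tested genes 9549 had overlapping groups. The import receptor gene Tomm20 had -0.29 (adjusted p = 0.055) and Tfam, which packs and transcribes mitochondrial DNA, -0.14 (adjusted p = 0.244). Of 8 regulators 2 fell, the coactivator Ppargc1b by 0.66 (adjusted p = 0.0498) and Perm1, a muscle regulator of oxidative genes, by 0.69 (adjusted p = 0.042). The call of Cs was lost without control 1 (0.051) or control 3 (0.053). Those of Ppargc1b and Perm1 were lost when any library other than knockout 2 was left out (0.057 to 0.141 for Ppargc1b and 0.071 to 0.114 for Perm1).

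Esrra, Nrf1, Gabpa and Yy1, which encode an ERR factor, NRF1, a GABP subunit and YY1, did not pass the test. Esrra had a log2 fold change of -0.38 (adjusted p = 0.054), with 57.2, 75.8, 76.3 and 61.6 CPM in the knockouts and 85.1, 91.5 and 87.1 CPM in the controls. It was called lower with DESeq2 (adjusted p = 0.024), upper quartile scaling (0.032), TMM without mitochondrial DNA genes (0.049) or a robust fit (0.0496), and without knockout 2 (0.035). Nrf1 had 0.27 (adjusted p = 0.170), Gabpa -0.079 (0.553) and Yy1 0.20 (0.157). Ppargc1a, the better known coactivator of mitochondrial genes, had 0.082 (SE 0.201, adjusted p = 0.814).

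As a share of all counts, the 55 members took 1.14% ± 0.073 in the knockouts (SD, n = 4) and 1.55% ± 0.064 in the controls (SD, n = 3). The direction of the subunit median did not depend on the scaling: it was -0.46 with TMM or RLE size factors, -0.51 with upper quartile scaling and -0.46 with the genes of mitochondrial DNA removed. Leaving out 1 library gave subunit medians from -0.48 (without knockout 4) to -0.43 (without knockout 3), and 28 members fell without knockout 3.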

How the data were processed

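Per the submitters' processing notes, reads were aligned to mm10 with STAR 2.7.10a and quantified per gene with RSEM 1.2.28; the notes also name DESeq2 (1.3.40). The authors deposited expected counts (estimated counts per gene, not normalized) for all 7 libraries, 4 knockout and 3 control. The sources used here name neither the transcript annotation nor the strand setting. The members and gene lists were chosen with earlier results of these data known.

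The counts were rounded to whole numbers and fitted once over all genes with edgeR 4.0.16 (R 4.3.3): filterByExpr, TMM, quasi-likelihood F test, no covariate, Benjamini-Hochberg adjustment over the 13409 genes kept. Standard errors were taken as |log2 fold change| divided by √F. Levels are CPM on TMM library sizes; the prior count for log2 CPM was 2. The procedure was tested on simulated counts. Library totals of 24458339 to 26389008 counts set the counting precision, from 101 counts for the lowest tested member in 1 library upward. In each class the genes given by library are the 2 with the smallest p, the one with the highest fold change and the one with the highest level, plus the Sdh subunits, Cycs, Cyc1, Ndufa4 and the subunit c genes. Positions are those of GENCODE M21 on GRCm38, matched by symbol; Atp5o and Atp5sl had none. Alternatives were RLE and upper quartile scaling, TMM without mitochondrial DNA genes, other filters on low counts (none, or a mean count of at least 10), DESeq2 1.42.0, a robust fit, a replicate block and leaving out each library.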

Additional observations from a re-analysis of the deposited data

Results flagged for a closer look

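In 3 of the 54 tested members 1 knockout library lay far from the other 3, by a gap over range above Dixon's critical value for 4 samples. Chance gives such a gap in about 1 of 20 groups. Atp5b had 2162 CPM in knockout 4 and Atp5o had 294 CPM in knockout 4, each above the other knockouts. Uqcr11 had 77.5 CPM in knockout 1, below the other knockouts.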

How the results depend on the processing

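All 37 members that fell kept a negative fold change in all 15 alternatives; 23 of the 54 tested members were called without each library in turn. Leaving out 1 library gave 24 to 37 members that fell, 0 to 1 that rose, 21 to 31 subunits, 2 to 4 assembly factors and 0 to 6 genes of the list outside the rule that fell, and 775 to 2025 calls over all genes. Without control 1, control 2, control 3, knockout 1 or knockout 3, 0 members rose. With DESeq2 or upper quartile scaling 39 members fell, and 34 with no filter on low counts. Upper quartile scaling moved the median of all genes to -0.043 and made 33.5% of all calls higher, against 45.2% with TMM. No filter gave 4 and the replicate block 2 genes of the outside list, against 7.

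Same-numbered libraries deviated together with correlations of 0.094, 0.134 and 0.085, so the numbers were not taken as pairs. Each of knockouts 1 to 3 correlated best with its own number, a hint from the data only. With the replicate block 32 members and 27 subunits fell, and 1224 of all genes were called. Uqcrb, Cox6b1, Ndufa4, Atp5d and Atp5j2 were then not called (adjusted p = 0.055 to 0.081). Knockout 4 has no control of the same number, so in this setting it did not inform the contrast. The lost calls therefore do not show an effect of pairing alone.

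Signs turned where the fold change was near 0. Leaving out 1 library gave Cox18 -0.12 to 0.080, Cox17 -0.031 to 0.091, Cox11 -0.0086 to 0.15, Cox15 -0.14 to 0.022, Uqcc3 -0.026 to 0.16 and Ppargc1a -0.15 to 0.18. Cox18 was at -0.041 with upper quartile scaling, -8.0e-05 without mitochondrial DNA genes, and -0.022 with the replicate block, and turned without knockout 2, knockout 4 or control 1. Cox17 was at -0.0057 with upper quartile scaling and turned without knockout 1, as Cox11 did. Cox15 turned without knockout 2, Uqcc3 without control 1 and Ppargc1a without knockout 2 or control 3. The cause was not tested. With 4 and 3 libraries, members of few counts had standard errors up to 0.162, and p-values near 0.05 moved with each library left out.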
